A study of Mus musculus with 14 samples.

Results

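Expression of 40 genes for glutamate receptors and for the scaffold proteins that hold them at the synapse was compared between aged mice with and without familial Alzheimer's disease transgenes, and between transgenic mice with and without CP2. The genes were chosen by symbol from the 43346 genes measured: the AMPA receptor subunits Gria1 to Gria4, the NMDA receptor subunits Grin1, Grin2a to Grin2d, Grin3a and Grin3b, the kainate receptor subunits Grik1 to Grik5, the delta receptor subunits, the metabotropic receptors of groups I to III, and the scaffold families Dlg1 to Dlg4, Dlgap1 to Dlgap4, Homer1 to Homer3 and Shank1 to Shank3. RNA was sequenced from frozen cross-sections of brain that held hippocampus and cortex. The mice were females of 23 months on a mixed C57BL/6;SJL-Tg background, and each library came from a separate mouse. The NTG group (mice 7 to 10, n = 4) were non-transgenic littermates given vehicle water. The APP/PS1 group (mice 16 to 20, n = 5) carried mutant human APP and PS1 transgenes and were given the same vehicle, although the labels call both of these groups non-treated. The CP2-treated group (mice 21 to 25, n = 5) were APP/PS1 mice given CP2, a small molecule that weakly inhibits mitochondrial complex I, at 25 mg/kg/day in drinking water from 9 months of age. NTG mice given CP2 are not analysed here, so an effect of CP2 without the transgenes cannot be told apart from one that needs them.

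Glutamate is the main excitatory transmitter of the forebrain. AMPA receptors carry most of the fast current, NMDA receptors admit calcium and start synaptic plasticity, and the metabotropic receptors act through G proteins, some at the postsynaptic side (group I) and others mainly on axon terminals and glia (groups II and III). Dlg proteins such as PSD-95 (Dlg4) bind receptor tails, Dlgap proteins link Dlg to Shank, and Homer links Shank to group I metabotropic receptors. Loss of these synapses is a known feature of Alzheimer's disease and of mice that carry its mutations.

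The libraries held from 70548781 to 106235625 counts on genes (median 86526928), so that 1 count was worth at most 0.0149 CPM (counts scaled to library size, here with TMM factors, which correct for differences in library composition). Markers of the dissected regions were present in every mouse, with summed levels of 184 to 284 CPM for 7 dentate gyrus genes, 191 to 283 CPM for 8 genes of the hippocampal CA fields and 438 to 585 CPM for 8 genes of the cortical layers. A pair of libraries stood apart in ways that touch the glutamate receptors. NTG mouse 7 had the highest level of each of 6 cerebellum markers among the 14 mice, and their sum was 382.6 CPM against 12.6 to 89.8 CPM in the other mice. APP/PS1 mouse 16 had the highest level of each of 10 striatum markers, with a sum of 2677 CPM against 213 to 406 CPM elsewhere. Mouse 7 was the lowest NTG mouse for 22 of the 39 members that could be tested and the highest for 7, and mouse 16 was the highest APP/PS1 mouse for 22 of 39. Values without these mice are given beside the results for a part of the members and not for other genes. In bulk tissue, fewer cells of a kind and less RNA per cell cannot be told apart.

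**Figure D1:**
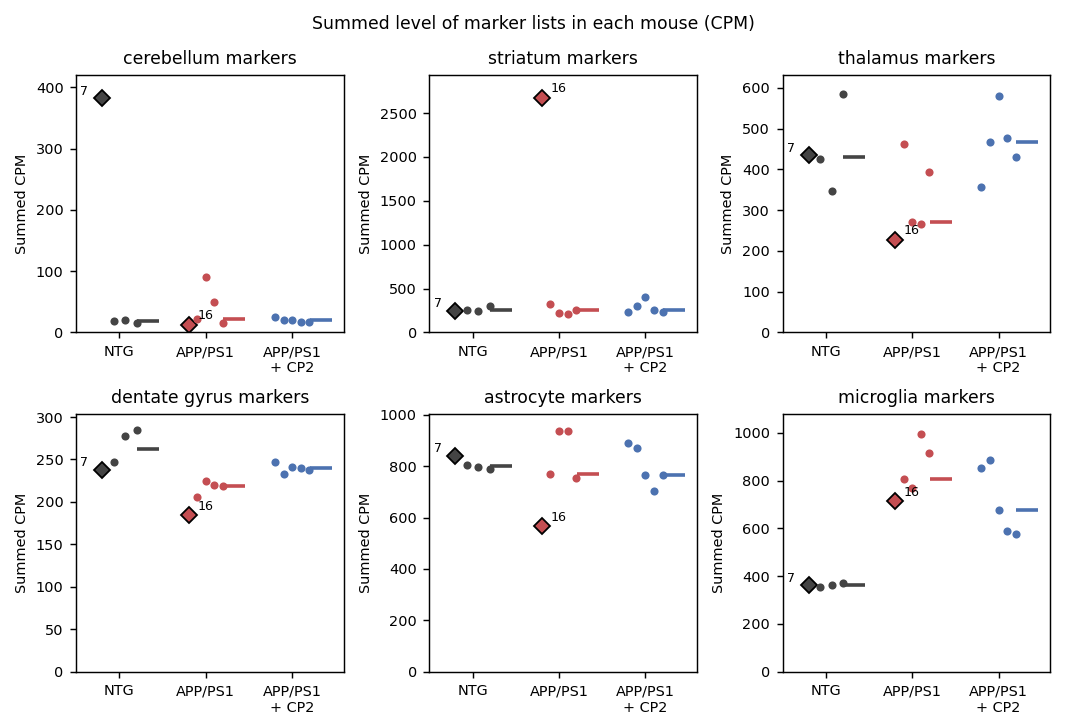
Summed CPM (vertical axes) of 6 marker lists in each mouse, by group; points are mice, horizontal bars are group medians, and diamonds mark mice 7 and 16. Mouse 7 stands alone for cerebellum markers (382.6 CPM) and mouse 16 for striatum markers (2677 CPM).

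The members spanned a wide range of levels. On the deposited RPKM scale (reads per kilobase of annotated exon, scaled for depth), which allows genes to be compared, PSD-95 (Dlg4) was highest with a mean of 80.3 over the mice, followed by Gria1 (61.3), Dlgap3 (44.9), Shank1 (44.5), Grik5 (36.9), the obligatory NMDA subunit Grin1 (36.3) and Gria2 (28.5). At the low end were the glycine-binding subunit Grin3b (0.73) and Grm6, the receptor of retinal bipolar cells, which had 0 to 8 counts per mouse and was the 1 member that did not reach the level needed for a test. Within families, Gria1 made up 51.8 ± 1.9% (SD, n = 4) of the summed AMPA subunit RPKM in NTG mice, Gria2 23.0 ± 1.4%, Gria4 12.98 ± 2.2% and Gria3 12.2 ± 0.97%. Among the GluN2 and GluN3 subunits, Grin2b held 37.7 ± 1.6% and Grin2a 23.97 ± 2.7% in NTG mice, and Grin2c held 19.9 ± 3.1%. Long untranslated regions lower RPKM where they are annotated but little used. The exon length taken for Grin2b was 24773 bases against 5296 for Grin2a, and that for Gria2 was 15548 against 6043 for Gria1. The shares therefore depend on the gene models. In CPM, which does not correct for length, Gria2 was above Gria1 in NTG mice (means of 558 and 489).

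**Figure D2:**
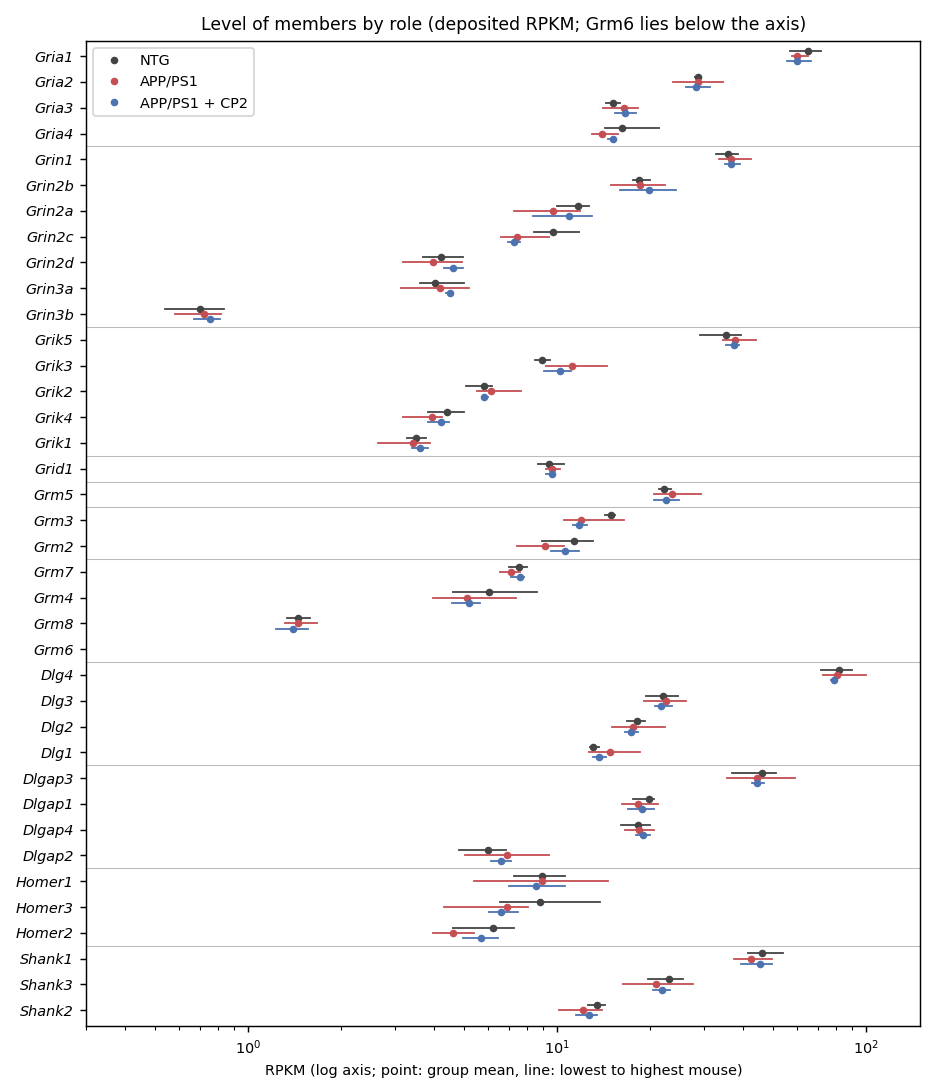
RPKM of 38 members (horizontal log axis) grouped by role, with points for group means and lines from the lowest to the highest mouse. Dlg4 (mean 80.3 over all mice) lies highest and Grin3b (0.73) lowest of those within the axis, and Grm6 lies below it.

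APP/PS1 mice were first compared with NTG mice, which asks whether receptor and scaffold transcripts differed with the transgenes in old age. The members were mostly a little lower in APP/PS1 mice, and among those with an unadjusted p under 0.05 the largest differences were in the metabotropic receptors Grm2 and Grm3, the NMDA subunit Grin2c and the scaffold Homer2, with log2 fold changes from -0.37 to -0.49. Of the 39 members tested, 32 had a log2 fold change below 0, where 51.2% of the 16417 genes tested did, and the median was -0.10 against -0.0042 over these genes. In the edgeR quasi-likelihood test 7 members had an unadjusted p under 0.05, each lower in APP/PS1 mice, while 8.05% of the genes tested were lower by this rule and 18.7% differed in either direction. After Benjamini-Hochberg adjustment 0 members passed 0.05, against 5.68% of the genes tested in either direction. DESeq2 called 2 members and 10.2% of the genes tested, and limma-voom with sample weights 3 members and 9.52% of the genes. With edgeR, 2 members were called without mouse 7 (1.14% of the genes tested were called lower) and 2 without mouse 16 (2.3%). In no member were the groups free of overlap, while 4.11% of the genes tested lay wholly lower in APP/PS1 mice and 5.93% wholly higher.

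Group II metabotropic receptors damp glutamate release. Grm3, which is found on astrocytes as well as neurons, had 62.4, 70.2, 69.2 and 63.1 CPM in NTG mice 7 to 10 and 70.7, 44.7, 43.7, 45.8 and 47.0 CPM in APP/PS1 mice 16 to 20. Of the APP/PS1 mice, 4 lay below every NTG mouse and mouse 16 lay above them all. The log2 fold change was -0.39 (SE 0.13, adjusted p = 0.145, edgeR); without mouse 16 it was -0.54 with an adjusted p of 0.000221, and without mice 7 and 16 it was -0.57 with an adjusted p of 0.000336. Grm2, a neuronal receptor that is abundant in dentate granule cells, had 36.6, 47.5, 51.4 and 52.6 CPM in NTG and 29.8, 34.0, 35.9, 37.8 and 43.6 CPM in APP/PS1 mice. NTG mouse 7 lay within the APP/PS1 range, while 3 NTG mice lay above it. The log2 fold change was -0.37 (SE 0.13, adjusted p = 0.144), -0.47 without mouse 7 (adjusted p = 0.0464) and -0.30 without mouse 16 (adjusted p = 0.156). With the ribosomal RNA share in the model it was -0.18 (unadjusted p = 0.206), and with thalamus markers -0.28 (unadjusted p = 0.109). The 7 dentate gyrus markers were also lower in APP/PS1 mice in 7 of 7 cases, with 5 at an unadjusted p under 0.05, and their sum ranged from 238 to 284 CPM in NTG and from 184 to 225 CPM in APP/PS1 mice; their part in the result for Grm2 was not tested.

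NMDA receptors join Grin1 with GluN2 or GluN3 subunits that set their kinetics. Grin2c, which is best known from cerebellar granule cells and is also made by forebrain astrocytes, had 73.5, 55.0, 57.3 and 58.6 CPM in NTG and 57.4, 40.5, 41.0, 43.3 and 41.1 CPM in APP/PS1 mice. Mouse 7 was far above the other NTG mice, mouse 16 was at the level of the NTG mice, and the 7 remaining mice formed separate groups. The log2 fold change was -0.45 (SE 0.12, adjusted p = 0.0614). It was -0.34 without mouse 7 (adjusted p = 0.135), -0.55 without mouse 16 (adjusted p = 0.00316), and -0.45 without mice 7 and 16 (adjusted p = 0.000516). The other 6 NMDA subunits had log2 fold changes from -0.32 for Grin2a (SE 0.15, unadjusted p = 0.052, adjusted p = 0.274) to -0.0061 for Grin3a. Grin1 itself differed by -0.024 (SE 0.082, adjusted p = 0.914), with 391, 429, 465 and 451 CPM in NTG and 498, 423, 380.3, 391 and 433 CPM in APP/PS1 mice, so that the APP/PS1 mice spread to either side of the NTG mice. Of the exon bases of Grin1, 13.5% are shared with an antisense gene, Grin1os, and 32.1% of those of Grin3b with Tmem259 on the other strand. The library kit does not mark strand, so such reads cannot be assigned to 1 of the 2 genes.

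The stretches just upstream of the annotated starts are shown for the 4 members that had the lowest p-values in APP/PS1 mice (RefSeq, GRCm38.p6, which is the build mm10), since the comparisons with NTG mice turn on these genes. Each holds the 250 bases before the start and lies on the minus strand: Grm3 at chr5:9725353-9725602, Grin2c at chr11:115267244-115267493, Homer2 at chr7:81706926-81707175 and Grm2 at chr9:106656110-106656359. Capitals mark GGGCGG, the core of the GC box bound by Sp and Klf factors, or its reverse complement CCGCCC.
Grm3: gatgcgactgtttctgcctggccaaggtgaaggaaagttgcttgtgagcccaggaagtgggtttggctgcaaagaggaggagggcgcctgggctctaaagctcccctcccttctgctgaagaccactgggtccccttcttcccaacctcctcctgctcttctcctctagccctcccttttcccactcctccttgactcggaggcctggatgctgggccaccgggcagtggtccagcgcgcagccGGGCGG
Grin2c: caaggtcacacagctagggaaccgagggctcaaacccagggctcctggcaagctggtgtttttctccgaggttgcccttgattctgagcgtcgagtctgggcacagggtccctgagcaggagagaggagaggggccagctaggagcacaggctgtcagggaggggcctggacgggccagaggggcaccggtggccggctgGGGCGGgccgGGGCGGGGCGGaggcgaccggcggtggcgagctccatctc
Homer2: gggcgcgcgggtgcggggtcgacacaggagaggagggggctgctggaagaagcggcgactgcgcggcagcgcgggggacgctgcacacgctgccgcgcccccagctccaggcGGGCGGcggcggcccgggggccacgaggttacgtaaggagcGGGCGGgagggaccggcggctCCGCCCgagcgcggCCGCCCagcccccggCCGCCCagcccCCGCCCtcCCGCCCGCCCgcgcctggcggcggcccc
Grm2: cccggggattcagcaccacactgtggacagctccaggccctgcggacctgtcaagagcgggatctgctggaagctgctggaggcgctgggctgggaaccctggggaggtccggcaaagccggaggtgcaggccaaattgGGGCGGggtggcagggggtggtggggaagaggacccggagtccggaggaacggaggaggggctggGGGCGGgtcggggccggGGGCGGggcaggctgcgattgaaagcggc
The GC box core occurred 1 time in the Grm3 window, 3 times in that of Grin2c, 8 times, in part overlapping, in that of Homer2 and 3 times in that of Grm2. It was found on at least 1 strand in 32.7% of the 32851 windows of the same length over all genes. The E-box CACGTG (6.02% of windows), the cAMP response element TGACGTCA (1.55%) and TATAAA (12.4%) were not in these 4 windows on any strand. These matches describe letters and are not evidence of binding. Promoter windows were at hand for 26 of the 40 members. Homer2 had 2 such windows, and the counts above describe only the 1 shown.

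Homer proteins tie group I metabotropic receptors to Shank and to calcium stores. Homer2 had 63.6, 95.7, 90.3 and 97.3 CPM in NTG and 55.6, 66.8, 51.8, 57.7 and 74.8 CPM in APP/PS1 mice. NTG mouse 7 lay among the APP/PS1 mice, and the other 3 NTG mice lay above them. The log2 fold change was -0.49 (SE 0.14, adjusted p = 0.0777), -0.61 without mouse 7 (adjusted p = 0.0163), and -0.58 without mice 7 and 16 (adjusted p = 0.0116). With thalamus markers as a covariate it was -0.33 (unadjusted p = 0.0625), and with the share of ribosomal RNA -0.37 (unadjusted p = 0.0669), past the unadjusted threshold in neither fit. Thalamus markers were lower in APP/PS1 mice in 10 of 10 cases, 2 of them at an unadjusted p under 0.05, and summed to 347 to 585 CPM in NTG and 227 to 461 CPM in APP/PS1 mice. Homer3, a form abundant in Purkinje cells, had 58.7 CPM in mouse 7 and 29.1 to 34.2 CPM in the other NTG mice, against 17.9 CPM in mouse 16 and 29.1 to 33.2 CPM in the other APP/PS1 mice. The log2 fold change, -0.42 (SE 0.24), was 0.0010 without these mice. Of the exon bases of Homer3, 25.4% are shared with Ddx49 on the other strand. Homer1 spread widely, from 92.0 to 144 CPM in NTG and from 67.6 to 185 CPM in APP/PS1 mice, and gene counts do not separate the short activity-induced Homer1a from the long forms.

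AMPA receptor subunits moved little. Gria1, the leading subunit by RPKM, had 508, 445, 482 and 521 CPM in NTG and 420.1, 429, 409, 416 and 486 CPM in APP/PS1 mice, with a log2 fold change of -0.17 (SE 0.067, adjusted p = 0.201). APP/PS1 mouse 20 overlapped the NTG mice and the other 4 lay below them. The value was -0.15 without mouse 7 (unadjusted p = 0.0738) and -0.16 without mouse 16 (unadjusted p = 0.0503). Gria4, a subunit of interneurons, thalamus and cerebellum, had 162 CPM in mouse 7 but 113, 114 and 109.6 CPM in the other NTG mice, against 97.6, 97.3, 113, 105 and 99.2 CPM in APP/PS1 mice. The log2 fold change of -0.28 (SE 0.11, adjusted p = 0.219) shrank to -0.12 without mouse 7 (adjusted p = 0.332). With cerebellum markers as a covariate, chosen after seeing the data, Gria4 was also lower and its adjusted p was 0.0139 (edgeR). Gria2, the subunit that makes the channel tight to calcium, and Gria3 differed by -0.066 (SE 0.10) and 0.061 (SE 0.073). Grm7, a presynaptic group III receptor, had 50.9, 53.6, 60.0 and 57.0 CPM in NTG and 54.0, 49.1, 50.2, 46.2 and 50.04 CPM in APP/PS1 mice, a log2 fold change of -0.14 (SE 0.057, adjusted p = 0.208) with overlapping groups. It was -0.18 without mouse 7 and -0.17 without mouse 16. Gria4 and Gria1 also lost their unadjusted p under 0.05 with the share of ribosomal RNA (-0.28 and -0.15) or thalamus markers (-0.33 and -0.098) as a covariate.

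Among the remaining members no unadjusted p was under 0.05. Grm4, a group III receptor of cerebellar granule cell terminals, had a log2 fold change of -0.29 (SE 0.22). Mouse 7 had 56.8 CPM of Grm4 against 31.2, 32.2 and 40.002 CPM in the other NTG mice, and without mouse 7 the value was -0.075. Mouse 16 had 47.3 CPM against 24.97 to 33.2 CPM in the other APP/PS1 mice. Without mouse 16 the value for Grm4 was -0.46 (unadjusted p = 0.0301, edgeR). The kainate subunit Grik3 was the member with the highest log2 fold change, 0.27 (SE 0.12, adjusted p = 0.276), with 158 CPM in mouse 16 and 98.7 to 124 CPM in the other APP/PS1 mice against 98.7 to 102 CPM in NTG mice, and the value was 0.15 without mouse 16. PSD-95 (Dlg4) had 441, 505, 543 and 543 CPM in NTG and 602, 451, 422, 442 and 491 CPM in APP/PS1 mice. The highest and the lowest of these mice were both APP/PS1, and the log2 fold change was -0.070 (SE 0.11, adjusted p = 0.786). The value for Dlg4 was -0.16 without mouse 16 (unadjusted p = 0.0613, edgeR). Without mice 7 and 16 it was -0.22 (unadjusted p = 0.00717, adjusted p = 0.0634). The 4 Dlg and 4 Dlgap scaffolds ranged from -0.18 for Dlgap1 to 0.14 for Dlgap2, and Shank1, Shank2 and Shank3 from -0.20 to -0.17.

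With mice 7 and 16 left out together, which was tried after the values had been seen, 12 members were lower at an unadjusted p under 0.05, as were 10.6% of the genes tested, and 7 fell by an adjusted p under 0.05, as did 3.11%: Grm3, Grin2c, Homer2, Grm2, Shank3 (log2 fold change -0.39, adjusted p = 0.0298), Grm7 (-0.21, adjusted p = 0.0412) and Dlgap3 (-0.34, adjusted p = 0.0481). Shank3 joins receptors to the actin cytoskeleton and Dlgap3 is a Shank partner that is rich in striatum. Dlgap3 had 205 CPM in mouse 7 against 267 to 295 CPM in the other NTG mice and 323 CPM in mouse 16 against 188 to 250.4 CPM in the other APP/PS1 mice.

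**Figure D3:**
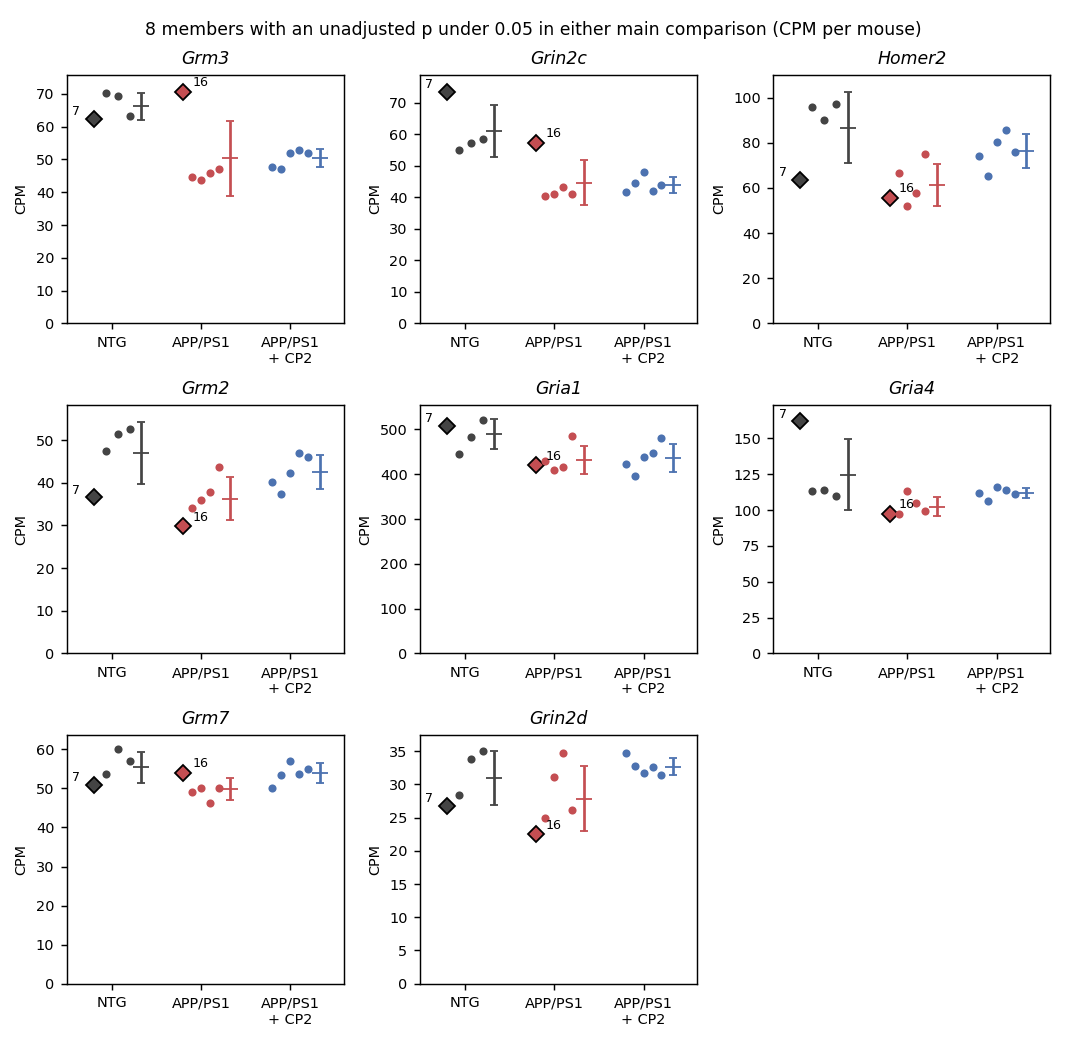
CPM (vertical axes) in each mouse for 8 members with an unadjusted p under 0.05 in APP/PS1 against NTG or with CP2 against vehicle; points are mice, diamonds are mice 7 and 16, and bars are the group mean ± SD. For Grm3 and Grin2c, mouse 16 lies at NTG level and the other 4 APP/PS1 mice lie near the CP2-treated mice.

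**Figure D4:**
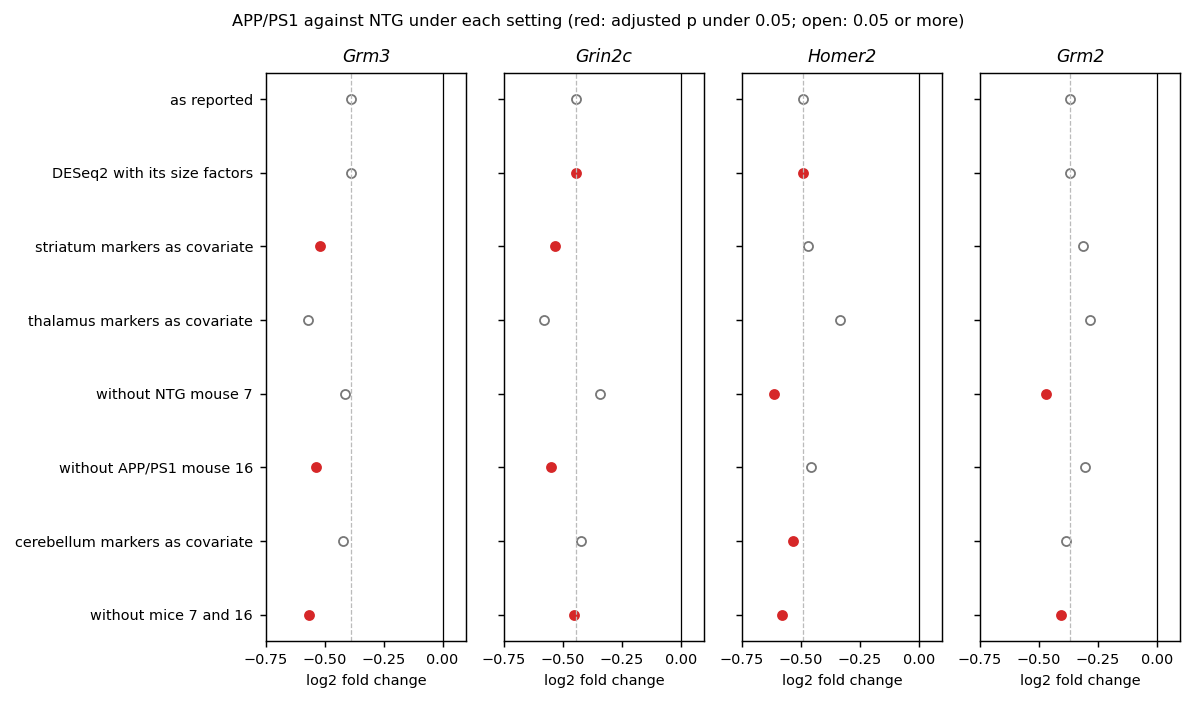
Log2 fold change of 4 members in APP/PS1 against NTG mice (horizontal axes) as reported and under 7 other settings (rows); filled red points have an adjusted p under 0.05. The sign is the same in each setting drawn, while the adjusted p of Grm3 and Grin2c passes with mouse 16 left out or striatum markers as covariate, that of Homer2 and Grm2 with mouse 7 left out, that of Grin2c and Homer2 with DESeq2, that of Homer2 with cerebellum markers as covariate, and that of all 4 without both mice.

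The partners of the receptors were examined next. Of 25 auxiliary subunits and extracellular partners of AMPA, kainate and delta receptors, 3 had an unadjusted p under 0.05, each lower in APP/PS1 mice, beside the 8.05% of genes tested that were lower by this rule, and the TARP Cacng7 passed adjustment, with 140.2 to 145 CPM in NTG and 124 to 133 CPM in APP/PS1 mice (log2 fold change -0.15, SE 0.038, adjusted p = 0.0469, edgeR). The TARP Cacng2 (stargazin) had -0.16 (SE 0.053, adjusted p = 0.126) and the neuronal pentraxin Nptx1 -0.25 (SE 0.11, adjusted p = 0.256). The cerebellin Cbln1 lay furthest down, at -0.98 (SE 0.55, adjusted p = 0.390). Of 28 postsynaptic enzymes and adaptors, 3 were lower at an unadjusted p under 0.05 and 0 passed adjustment: Lin7c (-0.13, SE 0.046), Nsf (-0.14, SE 0.062) and Begain (-0.21, SE 0.090), of which Nsf helps to recycle AMPA receptors. The actin-binding Actn2 differed most, by 1.02 (SE 0.49, adjusted p = 0.309). In this list the lowest log2 fold change with CP2 against vehicle was -0.83. The highest in CP2-treated APP/PS1 against NTG mice was 0.20. Values of Actn2 and Cbln1 without mice 7 and 16 are not given, and the part of these mice was not tested. Of 13 genes of glutamate transport and turnover, 3 had an unadjusted p under 0.05, each lower. Slc1a2, the astrocytic transporter GLT-1 that clears most synaptic glutamate, fell from 3173 to 2375 CPM (log2 fold change -0.41, SE 0.10, adjusted p = 0.0442), although APP/PS1 mouse 16, at 2708 CPM, lay above NTG mouse 7, at 2659 CPM. Gls2, a glutaminase, had -0.31 (SE 0.087, adjusted p = 0.0705) and Glul, the glutamine synthetase of astrocytes, had -0.36 (SE 0.11, adjusted p = 0.0904). The astrocyte gene Fgfr3 fell by 0.46 on the log2 scale (adjusted p = 0.000294), and 4 of 6 astrocyte markers were lower at an unadjusted p under 0.05, with Slc7a10 at -0.34, Gja1 at -0.24 and Gjb6 at -0.19. The remaining markers were Aldh1l1 at 0.028 and Aqp4 at 0.52 (SE 0.26), and the summed level of the 6 ranged from 789 to 839.7 CPM in NTG and from 566 to 938 CPM in APP/PS1 mice. Microglial markers, 8 of 8 of which rose, summed to 353 to 371 CPM in NTG and 714 to 996 CPM in APP/PS1 mice. Activity-induced genes such as Arc and Fos were lower in 10 of 10 cases, with a median of -0.57 and no call at an unadjusted p under 0.05. The part of these shifts in the members' values was not tested.

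The effect of CP2 was then examined against vehicle in APP/PS1 mice, which asks whether the drug altered these transcripts. No member passed adjustment: the adjusted p was 0.744 at the lowest, and 0.00609% of the 16407 genes tested passed in either direction. At an unadjusted p under 0.05 there were 6 members, each higher with CP2, where 2.88% of the genes tested were higher by this rule and 6.55% differed in either direction. DESeq2 also gave 6 members at its unadjusted p, and edgeR gave 2 without mouse 17 and 3 without mouse 23, 24 or 25. The share of all genes called in these other fits is not given, so these counts describe the members alone. The median log2 fold change was 0.016, and 24 of the 39 members were above 0, against 47.5% of the genes tested. The comparison shares the vehicle-treated APP/PS1 mice with the one before, so the values are not independent.

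Homer2 had 55.6, 66.8, 51.8, 57.7 and 74.8 CPM with vehicle and 74.2, 65.2, 80.4, 85.7 and 76.0 CPM with CP2, a log2 fold change of 0.31 (SE 0.10, unadjusted p = 0.0111). The groups overlapped by mice 17 and 20 on the vehicle side and mice 21 and 22 on the CP2 side.

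Gria4 had 112, 107, 116, 114 and 111 CPM with CP2 (log2 fold change 0.13, SE 0.047, unadjusted p = 0.020), Grm2 had 40.2, 37.4, 42.3, 46.9 and 46.0 CPM (0.23, SE 0.098, unadjusted p = 0.0367), and Grm7 had 50.02, 53.4, 57.1, 53.7 and 55.0 CPM (0.11, SE 0.048, unadjusted p = 0.0428). The groups overlapped in each. Grin2d, an NMDA subunit of interneurons and of thalamus, had 22.5, 24.9, 31.1, 34.7 and 26.1 CPM with vehicle and 34.7, 32.8, 31.8, 32.6 and 31.4 CPM with CP2, with a log2 fold change of 0.23 (SE 0.10, unadjusted p = 0.0492). The CP2-treated mice lay close together, and 4 of the 5 vehicle-treated mice lay below them. With a mouse left out the unadjusted p stayed under 0.05 in 2 of 10 fits for Grin2d, 4 of 10 for Grm2 and 9 of 10 for Gria4. With the ribosomal RNA share in the model the value for Grin2d was 0.13 (unadjusted p = 0.286). Without mouse 16 the values were 0.28 for Homer2, 0.11 for Gria4 and 0.14 for Grm7, each with an unadjusted p under 0.05. They were 0.17 for Grm2 (unadjusted p = 0.073) and 0.16 for Grin2d (unadjusted p = 0.0975). All 10 thalamus markers were higher with CP2, 5 of them at an unadjusted p under 0.05, and they summed to 227 to 461 CPM with vehicle and 356 to 579 CPM with CP2. With their level as a covariate, Gria4 (0.16) and Grin2d (0.32) were the 2 members under the same threshold, and Homer2 had a log2 fold change of 0.14. The dentate gyrus markers were also higher with CP2 in 7 of 7 cases, 1 of them at an unadjusted p under 0.05. They summed to 184 to 225 CPM with vehicle and 233 to 247 CPM with CP2. The part of the dentate gyrus markers in the result for Grm2 was not tested.

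For Grm3 and Grin2c, 4 of the 5 vehicle-treated APP/PS1 mice lay below every NTG mouse. With CP2, Grm3 had 47.6, 47.1, 52.0, 52.9 and 52.1 CPM and Grin2c had 41.7, 44.6, 48.1, 41.9 and 43.9 CPM. Their log2 fold changes against vehicle were -0.0018 (SE 0.12) and -0.021 (SE 0.094). Without mouse 16 they were 0.15 (unadjusted p = 0.0097) and 0.088 (unadjusted p = 0.0989), so that Grm3 came under the unadjusted threshold. Gria1 had 422, 396, 439, 448 and 481 CPM and Grin1 404, 409, 429, 432 and 455 CPM with CP2. Gria1 (0.016, SE 0.064), Grin1 (0.0038, SE 0.072) and Dlg4 (-0.028, SE 0.086) differed by less than their standard errors. Dlg4 had 480.3, 469, 484, 470.1 and 459 CPM with CP2, within the range of the vehicle-treated mice. Of the partners, 1 of 25 auxiliary subunits (Cacng2, 0.12, SE 0.048, adjusted p = 0.744) and 1 of 28 enzymes and adaptors (Grip2, which binds AMPA receptor tails, 0.18, SE 0.060, adjusted p = 0.744) were higher at an unadjusted p under 0.05, and 1 of 13 transport genes was lower (Slc1a3, the GLAST transporter of astrocytes, -0.16, SE 0.072, adjusted p = 0.744). The activity-induced genes lay higher in 10 of 10 cases (median 0.27), none of them called before adjustment.

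**Figure D5:**
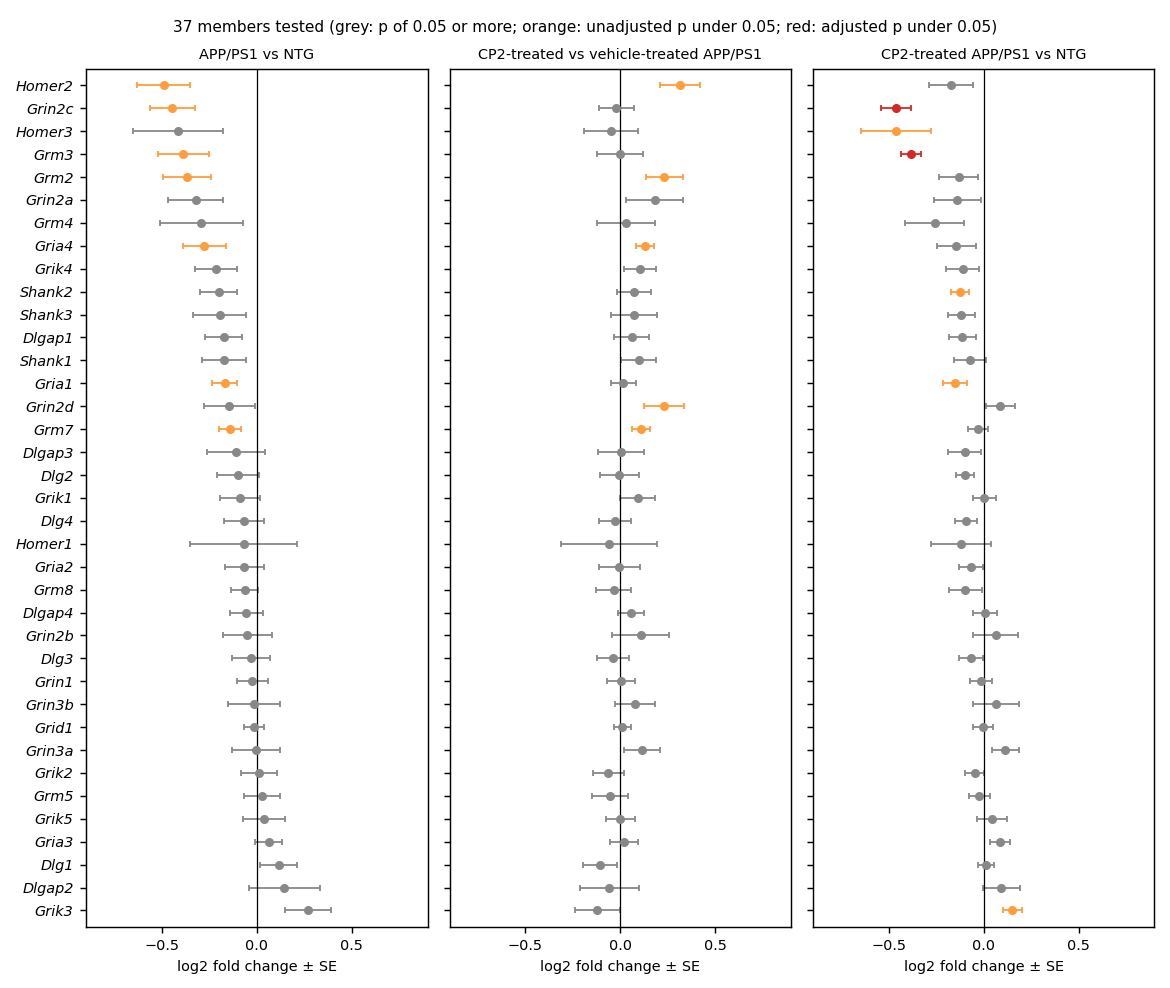
Log2 fold change with its standard error (horizontal axes) of 37 of the 39 tested members in the 3 comparisons, in the order of the first. Orange points have an unadjusted and red points an adjusted p under 0.05; Grm3 and Grin2c are red in CP2-treated APP/PS1 against NTG mice.

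Last, CP2-treated APP/PS1 mice were set against NTG mice, which gives what remained different under treatment. This comparison shares its NTG mice with the first and its CP2-treated mice with the one before. It held the 2 members that passed adjustment, against 1.46% of the 16416 genes tested that passed as lower and 6.02% that passed in either direction. Of the 39 members, 27 were below 0, as were 50.6% of the genes tested, with a median of -0.072 for the members and -0.0015 for the genes tested. Grm3 fell by 0.38 on the log2 scale (SE 0.054, adjusted p = 0.00193, edgeR), and the 5 treated mice, at 47.1 to 52.9 CPM, lay below the 4 NTG mice at 62.4 to 70.2 CPM. Grin2c fell by 0.46 (SE 0.081, adjusted p = 0.00665), at 41.7 to 48.1 CPM against 55.0 to 73.5 CPM. Without mouse 7 the values were -0.41 (adjusted p = 0.00263) and -0.36 (adjusted p = 0.0032). In a joint fit of the 3 groups Grin2c kept its call (adjusted p = 0.0213) and Grm3 did not (adjusted p = 0.0828). These were the 2 members whose groups lay apart in this direction, as did 3.61% of the genes tested. Slc1a2 lay apart as well, at 2485 to 2602 CPM in treated against 2659 to 3438 CPM in NTG mice, and fell by 0.31 (SE 0.071, adjusted p = 0.0267).

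At an unadjusted p under 0.05 there were 6 members, 5 lower and 1 higher, where 8.59% of the genes tested were lower, 11.6% higher and 20.2% either. Besides Grm3 and Grin2c the lower ones were Gria1 (-0.15, SE 0.064, adjusted p = 0.217), Shank2 (-0.13, SE 0.049, adjusted p = 0.172) and Homer3 (-0.46, SE 0.18, adjusted p = 0.184), and Homer3 had -0.17 without mouse 7. The higher one was Grik3, at 102.8 to 119 CPM in treated mice against 98.7 to 102.5 CPM in NTG mice (0.15, SE 0.049, adjusted p = 0.106), whose groups were apart by a narrow gap, and 6% of the genes tested lay wholly higher. Of the members that were lower in vehicle-treated APP/PS1 mice, Homer2 (-0.17, SE 0.12), Grm2 (-0.13, SE 0.10), Gria4 (-0.14, SE 0.10) and Grm7 (-0.028, SE 0.053) had an unadjusted p of 0.05 or more here. With mouse 7 left out, Grm2 had -0.23 (unadjusted p = 0.0106, adjusted p = 0.100, edgeR) and Gria4 had 0.0085 (unadjusted p = 0.830, edgeR). Without mouse 7, 11 members were lower and 1 higher at an unadjusted p under 0.05 (8.7% of the genes tested were lower), and 6 passed adjustment as lower (1.86% of the genes tested), which were Grm3, Grin2c, Dlgap3 (-0.20, adjusted p = 0.0345), Homer2 (-0.29, adjusted p = 0.0452), Shank3 (-0.19, adjusted p = 0.0452) and Dlg4 (-0.15, adjusted p = 0.047).

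Subunit composition was compared with 4 ratios of RPKM per mouse, tested by a two-sided exact permutation test of the group means with adjustment over the 12 tests, and in 0 of them did the adjusted p pass 0.05. The Grin2a to Grin2b ratio, which rises as the forebrain matures, had a mean log2 value of -0.66 ± 0.15 (SD, n = 4) in NTG, -0.93 ± 0.17 (n = 5) in APP/PS1 and -0.85 ± 0.11 (n = 5) in CP2-treated mice. The difference of APP/PS1 from NTG was -0.27 (exact p = 0.0635, adjusted p = 0.254). The Grm2 to Grm3 ratio was -0.42 ± 0.21 in NTG, -0.37 ± 0.45 in APP/PS1 and -0.15 ± 0.071 in CP2-treated mice, and the last differed from NTG by 0.26 (exact p = 0.0476, adjusted p = 0.254). Mouse 16 had a Grm2 to Grm3 ratio of -1.15 against -0.30 to -0.017 in the other APP/PS1 mice. Gria1 to Gria2 was 1.17 ± 0.13, 1.08 ± 0.22 and 1.09 ± 0.063 in the 3 groups in the same order. Gria4 to Gria2 was -0.84 ± 0.28, -1.02 ± 0.32 and -0.89 ± 0.11, with -0.41 in mouse 7 against -0.997 to -0.973 in the other NTG mice.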

How the data were processed

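The authors prepared libraries with a TruSeq v2 kit that does not mark strand, aligned the reads to mm10 with TopHat, and used Subread featureCounts on the Ensembl annotation, adding a read to each gene it overlapped (tools per the labels and the study's methods; versions are not given in the sources used here). The deposited table holds gene counts without normalization, which were used in the tests, and RPKM values computed by the authors, used for levels between genes and for ratios.

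Each comparison was fitted on its 2 groups with edgeR 4.0.16 (R 4.3.3): glmQLFit, glmQLFTest and TMM factors. P-values were adjusted by Benjamini and Hochberg's method across genes with a robust CPM over 1 in every mouse of at least 1 group, and standard errors were derived from the F statistic. The study's own script tests with DESeq2. Ratios were tested with SciPy 1.17.1. The 26 pairs of replicates differed by more than sampling noise (lowest chi-square per degree of freedom 10.5). Exon overlaps came from GENCODE vM21.

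Of the members, 2 are not reported here by name or with values of their own, and counts over members include them. The members and lists were chosen with earlier results of these data known. Apart from the 2 that are not reported, values in every mouse were given for members with an unadjusted p under 0.05 in the first or second comparison and for Grin1, Dlg4, Gria4, Grm2 and Grm7; Grm4, Homer1, Homer3, Grik3, Shank2, Shank3, Dlgap3, Dlgap1, Dlgap2, Grin2a, Grip2, Slc1a3, Cbln1, Actn2 and the astrocyte markers were named after their values were seen. Of each list of partners at most the 4 genes with the smallest p were named. Alternatives were DESeq2 1.42.0, RLE factors, total counts, no filter, a joint fit of the 3 groups, a minimum of 10 counts per mouse, limma-voom (limma 3.58.1) with quality weights, the share of ribosomal RNA (2.40 to 7.50% of counts), striatum or thalamus markers as covariates, and each mouse left out. Cage and extraction batch are not in the labels, so their part was not tested. P-values set the difference between groups against the spread between these mice.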

Additional observations from a re-analysis of the deposited data

Results flagged for a closer look

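In 99 sets of values (a member, a marker list or a ratio in 1 group of 4 or 5 mice) the highest or lowest mouse was compared with the rest. In 12 it stood further off than Dixon's 95% limit. Chance would do this in about 1 of 20 independent sets chosen beforehand. Here some sets share genes, and some members were named after their values were seen, so the 12 cannot be judged against that rate. Of the 12, 11 were mice 7 and 16. Mouse 16 was highest among APP/PS1 mice for Grm3 (70.7 CPM, the next at 47.0) and Grin2c (57.4 CPM, the next at 43.3), lowest for Homer3 (17.9 CPM, the next at 29.1) and lowest in the Grm2 to Grm3 log2 ratio (-1.15). It was also highest for summed striatum markers (2677 CPM) and interneuron markers (1183 CPM, the next at 804). Mouse 7 was highest among NTG mice for Gria4 (161.9 CPM, the next at 114) and in the Gria4 to Gria2 log2 ratio (-0.41). It was also highest for summed cerebellum markers (382.6 CPM), oligodendrocyte markers (7755 CPM, the next at 5743) and interneuron markers (942.3 CPM, the next at 888). The remaining set was Gria1 in APP/PS1 mice, where mouse 20 had 485.9 CPM and the next 429 CPM. The part of the striatum and cerebellum markers in the members' values was not tested beyond the fits with these markers as covariates and those without the mice.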

How the results depend on the processing

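No paired analysis was possible because the groups share no replicate numbers. The covariate of cerebellum markers and the fit without mice 7 and 16 were chosen after seeing the data. In APP/PS1 against NTG the number of members at an unadjusted p under 0.05, 7 as reported, was 11 with all 3 groups in one fit, 4 with ribosomal RNA, 3 with thalamus and 11 with cerebellum markers as covariate, 12 without mice 7 and 16, and 4 (without mouse 10) to 11 (without mouse 20) with a mouse left out. The number past adjustment, 0 as reported, was 2 with DESeq2, 2 with all groups in one fit, 3 with limma-voom, 1 with ribosomal RNA, 2 with striatum and 2 with cerebellum markers as covariate, 7 without mice 7 and 16, and 0 to 2 with a mouse left out (2 without mouse 7 and 2 without mouse 16). Of the genes tested, 5.68% passed adjustment as reported, 10.2% with DESeq2 and 9.52% with limma-voom, in either direction. Without mice 7 and 16, 3.11% passed as lower. For CP2 against vehicle the 6 members at an unadjusted p were 1 with ribosomal RNA, 2 with thalamus markers as covariate, and 2 (without mouse 17) to 7 (without mouse 16) with a mouse left out, with 3 without mouse 23, 24 or 25. Of the 7 without mouse 16, 6 were higher and 1 was lower with CP2. In CP2-treated APP/PS1 against NTG the 6 became 10 with limma-voom, 13 with cerebellum markers and 4 to 12 with a mouse left out, and the 2 past adjustment became 1 with all groups in one fit and 2 to 6 with a mouse left out (12 and 6 without mouse 7). For most other settings the share of all genes called is not given, so these counts do not show a shift particular to the members. The cause was not tested.

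Of 577 alternative values of 28 gene changes, 556 kept their direction. Those that turned were values near 0 of Grin1 (with total counts 0.020, -0.0086 and 0.012 in the 3 comparisons in the order of the report, -0.052 with cerebellum markers in the second, and with a mouse left out -0.085 to 0.015, -0.036 to 0.068 and -0.060 to 0.018), Dlg4 with CP2 against vehicle (0.047 with limma-voom, 0.046 with ribosomal RNA, 0.041 with striatum and 0.054 with thalamus markers, -0.074 to 0.067 with a mouse left out), and, in CP2-treated APP/PS1 against NTG, Gria4 (-0.22 to 0.0085) and Grm7 (-0.065 to 0.010). Of 128 alternative values of the ratios, 0 passed adjustment and 10 turned: Gria1 to Gria2 (0.025 without mice 7 and 16 in the first comparison, -0.076 to 0.061 with a mouse left out in the second), Gria4 to Gria2 (0.055 without mice 7 and 16 in the first, -0.11 to 0.086 with a mouse left out in the last) and Grm2 to Grm3 (-0.044 to 0.24 with a mouse left out in the first). The tested member with the fewest counts, Grin3b, had 155 to 333 counts per mouse, and each group had 4 or 5 mice.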
